A study of Mus musculus with 18 samples.

Results

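The genes of oxidative phosphorylation were read in immune cells sorted from mouse livers that bore tumours. Members were the rows of the count table whose symbol names a subunit of respiratory complex I (Nduf), II (Sdh), III (Uqcr) or IV (Cox), of ATP synthase (complex V, Atp5), or a protein gene of the mitochondrial genome (mt-). Symbols ending in -ps were dropped, which removed 1 row. This gave 101 members of 48440 rows, 88 encoded in the nucleus and 13 in the mitochondrial genome. The nuclear members were 37 of complex I, 4 of complex II, 10 of complex III, 17 of complex IV and 20 of complex V, with 5 pseudogene symbols among them. The mitochondrial members were 7 of complex I, 1 of complex III, 3 of complex IV and 2 of complex V. A match on symbols is not a list of subunits. Atp5sl is known as an assembly factor of complex I. Ndufa4 is filed here under complex I although it is known as a subunit of complex IV. Cox4i1, a complex IV subunit whose row has no symbol in the FPKM table, is not a member and is given beside the members.

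All mice were wild-type C57BL/6J, bought at 7 weeks of age, whose livers had received Ras and Myc oncogenes by hydrodynamic tail vein injection, which carries DNA into hepatocytes; the sorted immune cells are thus host cells and not the targeted ones. Treated mice received PolyIC, a synthetic double-stranded RNA, at 4 mg/kg and anti PD-L1, an antibody against an immune checkpoint ligand, at 200 µg, by intraperitoneal injection every other day for 6 doses. Untreated mice carried the same tumours. An anti VEGF-A antibody stands in the dosing protocol but in no label of a treated library. CD45+ cells were sorted into a CD3+CD8+, a CD3+CD8- and a CD3-CD8- fraction, each read in 3 treated and 3 untreated libraries, 18 in all. Each library's name holds a number, perhaps of the mouse, although no label states this: treated libraries have numbers 2, 11 and 19, and untreated ones 1, 5 and 18, except that untreated CD3+CD8- cells have 5, 6 and 18. Values of 3 libraries are given below in those orders. Before the number stand the letters C in untreated and P in treated names, but CV for number 6 and PL for number 19. No label explains these letters.

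Complexes I to IV pass electrons from NADH and succinate to oxygen, complexes I, III and IV pump protons across the inner mitochondrial membrane, and complex V uses the proton gradient to make ATP. Complexes I, III, IV and V are built from subunits of both genomes, while complex II is encoded in the nucleus alone. In T cells, quiescent and memory states lean on this pathway and activation enlarges it together with glycolysis, while neutrophils hold few mitochondria. Mitochondrial transcripts are cut from long precursors that cover each strand of the circular genome, so their levels are set together in a way that those of nuclear subunits are not.

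Total counts per library ran from 1829155 to 28233682, and the counts outside 5 ribosomal loci (Rn18s-rs5, Lars2, mt-Rnr1, mt-Rnr2 and Gm15564), which are the denominator of every share and CPM here, from 486461 to 27971673. Those loci held 87.0% and 79.7% of the counts in untreated CD3+CD8+ 1 and 18 and 84.0% in treated CD3+CD8- 2, against 0.35% to 2.26% in the other 15 libraries. Cd3e and Cd8a, defining transcripts of the sort, were not absent from the CD3-CD8- fraction: Cd8a stood at 1421, 669 and 953 CPM in treated and 260.2, 452 and 76.8 CPM in untreated CD3-CD8- cells. Treated CD3+CD8+ cells had 2017, 1404 and 1825 CPM of it, so the treated CD3-CD8- libraries go against their label at this transcript. Cd3g stood at 2539, 1585 and 1668 CPM in treated CD3-CD8- and 2056, 2027 and 1316 CPM in treated CD3+CD8+ cells. With 872 CPM of Cd8a, against 8.70 and 7.35 CPM in numbers 5 and 18, the library labelled untreated CD3+CD8- 6 goes against its label as well. In such mixtures fewer cells of a type and less RNA per cell cannot be told apart.

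Some members cannot be counted apart from copies elsewhere in the genome. The gene models Gm10925, Gm28661, Gm28437, Gm28438 and Gm10222 on chromosome 1 repeat mt-Atp6, mt-Co2, mt-Co3, mt-Nd3 and mt-Nd4l over at least 98.99% of the member's length at 99.71% to 100% identity. They held 53.1%, 29.9%, 43.8%, 43.6% and 47.8% of the counts given to gene and copy together. The levels of these 5 members are therefore uncertain. The starts of mt-Nd3 (chrM:9459-9521) and Gm28438 (chr1:24613057-24613119, minus strand; both GENCODE vM21 on GRCm38) are shown because the 345 bases compared differ at 1 position only, T3C, counted from the first base of mt-Nd3 and marked by the capital:
mt-Nd3: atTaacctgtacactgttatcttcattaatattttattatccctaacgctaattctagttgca
Gm28438: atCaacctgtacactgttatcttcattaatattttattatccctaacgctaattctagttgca
In mt-Nd4 and mt-Co1 a chromosome 1 copy covers a part of the gene, with 2.61% and 0.71% of the joint counts, and mt-Atp8 has no annotated copy. Copies on chromosome 2 or 13 at 95.2% to 97.6% identity (of mt-Co1, mt-Co2, mt-Nd2 and mt-Nd5) held at most 2.48%. Adding the copies raised the mitochondrial share of untreated CD3+CD8+ 18, the highest of all libraries, to 35.7% from 35.0%. A copy of at least 95% identity over at least 80% of its length was annotated for 25 nuclear members too. Among members without a pseudogene symbol it held at least 10% of the joint counts for 6, Atp5g1, Atp5h, Atp5l, Cox5b, Ndufa12 and Uqcrb, whose values are uncertain to that extent, and 5.90% for Ndufs6. The pseudogene members Atp5k-ps2, Atp5l-ps1 and Atp5l-ps2 had 217, 88 and 2 counts in all 18 libraries, and their parent genes Atp5k and Atp5l held 97.1%, 99.5% and 99.99% of the joint counts. Further, mt-Nd6 lies opposite the other mitochondrial genes. Whether the counting used strand is not stated, so its reads cannot be told apart from those of its antisense partners.

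Mitochondrial members took 4.19% to 35.0% of the counts, an 8.37-fold span, while nuclear members took 0.407% to 0.882%, a 2.16-fold span. Libraries of one number resembled each other in the mitochondrial share whatever their sorted fraction. The 3 libraries of untreated number 18 held 35.0% in CD3+CD8+, 33.3% in CD3+CD8- and 30.0% in CD3-CD8- cells. Those of treated number 19 held 22.0%, 25.5% and 29.2%, in the same order. At the low end stood treated number 2, with 6.72%, 5.09% and 8.29%, and untreated number 5, with 7.36%, 4.19% and 6.69%. Each treatment thus holds a number at either end. The highest share over the lowest was 1.17 to 1.76 among libraries of one number in different fractions, and 3.27 to 7.96 among libraries of one group.

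Group means of the mitochondrial share carried wide SDs. The share averaged 15.1% ± 7.73 in treated and 17.7% ± 15.1 in untreated CD3+CD8+ cells (SD, n = 3 each). In CD3+CD8- cells it averaged 14.0% ± 10.46 treated and 16.5% ± 15.1 untreated, and in CD3-CD8- cells 18.6% ± 10.46 treated and 15.3% ± 12.8 untreated. Treated and untreated ranges overlapped in every fraction. Hepatocytes are rich in mitochondria, and the summed level of 7 hepatocyte markers was highest in number 18, at 2153 to 3195 CPM. It was 1079 to 1474 CPM in number 19 and 176 to 422 CPM in number 5, while number 2, with low mitochondrial shares, had 437 to 1324 CPM, and number 11, with middle ones, 377 to 630.0 CPM. None of the 7 markers was at 0 in all libraries of a group. The part of these transcripts in the mitochondrial share was not tested.

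**Figure D1:**
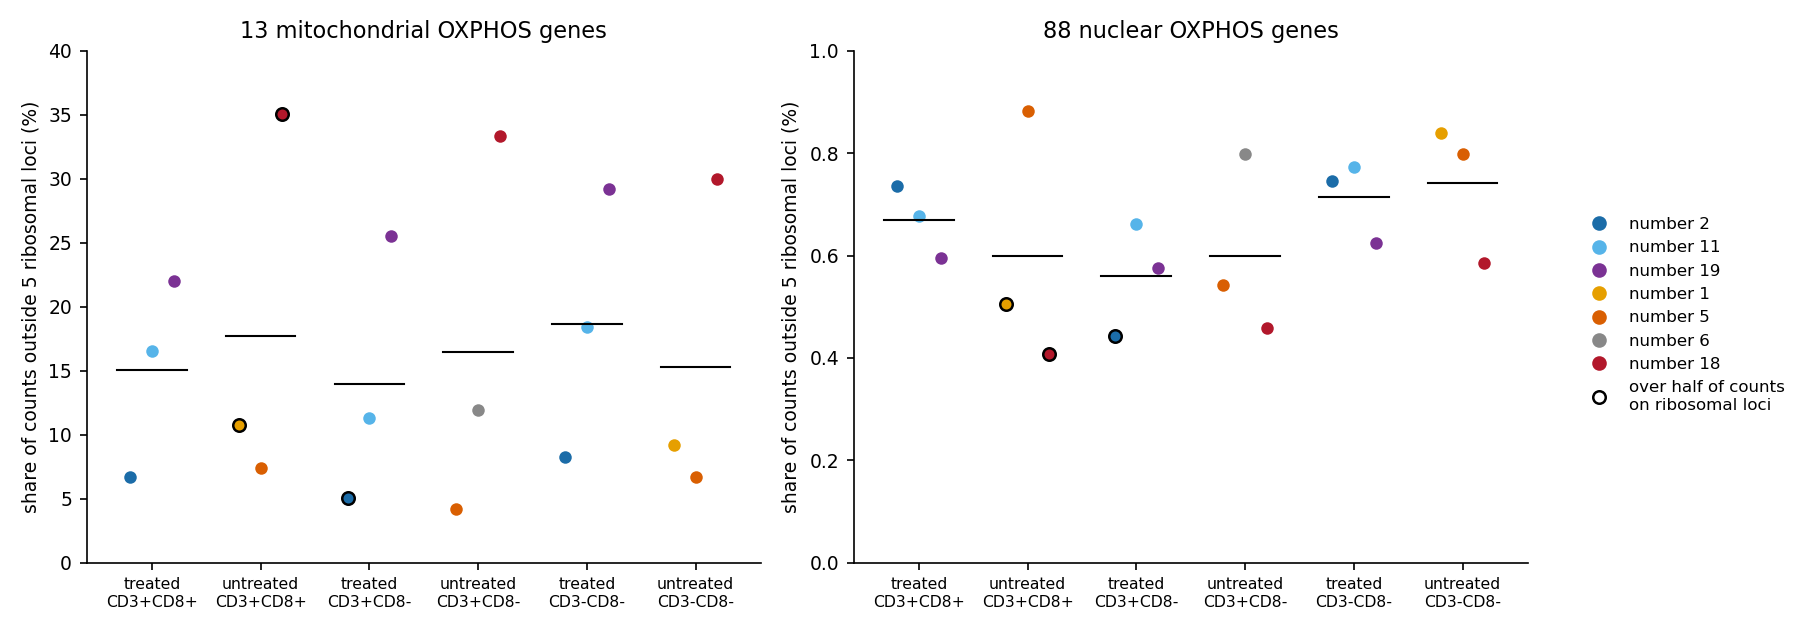
Share of counts outside the 5 ribosomal loci taken by mitochondrial members and by nuclear members (percent), 1 point per library, by sorted fraction and treatment, coloured by the library's number, with the mean of each group of 3 as a bar and libraries rich in ribosomal counts ringed. Mitochondrial shares are highest in number 18 and next in number 19 in all 3 fractions and lowest in numbers 2 and 5, while nuclear shares stay between 0.407% and 0.882%.

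The nuclear share moved far less and in another order. Its values were 0.735, 0.677 and 0.595% in treated and 0.506, 0.882 and 0.407% in untreated CD3+CD8+ cells. In CD3+CD8- cells they were 0.444, 0.661 and 0.576% treated and 0.542, 0.799 and 0.459% untreated. CD3-CD8- cells had 0.746, 0.773 and 0.624% treated and 0.839, 0.799 and 0.586% untreated. Treated and untreated libraries overlapped in all 3 fractions, and the lowest share of an untreated group was always that of number 18. As mitochondrial counts enter the denominator, a high mitochondrial share lowers the nuclear one. Without them the nuclear share ran from 0.467% to 0.952%. Rows with cytosolic ribosomal protein symbols, a list of another cell function that may hold pseudogenes, had shares of 5.34% to 17.4%. This share was highest in untreated CD3+CD8+ 5, which also had the highest nuclear share.

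Within the mitochondrial counts mt-Co1 and mt-Cytb held much the same shares in all libraries. mt-Co1, the catalytic core of complex IV, took 47.3% ± 3.38 of them (SD, n = 18), and mt-Cytb, the core of complex III, 16.4% ± 1.05. The complex I subunits mt-Nd2, mt-Nd1, mt-Nd5, mt-Nd4 and mt-Nd6 took 10.7% ± 1.32, 10.2% ± 0.935, 6.32% ± 1.40, 5.49% ± 0.450 and 1.59% ± 0.545. Less steady were mt-Nd5, at 4.498% to 9.35%, and mt-Nd6, at 0.859% to 2.77%. The remaining 6 took under 1% each: mt-Co2 0.785%, mt-Co3 0.618%, mt-Atp6 0.487%, mt-Nd3 0.0430%, mt-Atp8 0.0300% and mt-Nd4l 0.0240%, with mt-Atp8 between 0.014% and 0.055%. These are shares of counts, not per length, and the 5 genes whose full length is repeated on chromosome 1 are all among the 6 low ones. The level of mt-Co1 was 42829, 85492 and 133799.6 CPM in treated and 46830.2, 33476 and 132379 CPM in untreated CD3-CD8- cells. Number 18 and number 19 were the highest in their groups, and the groups overlapped.

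**Figure D2:**
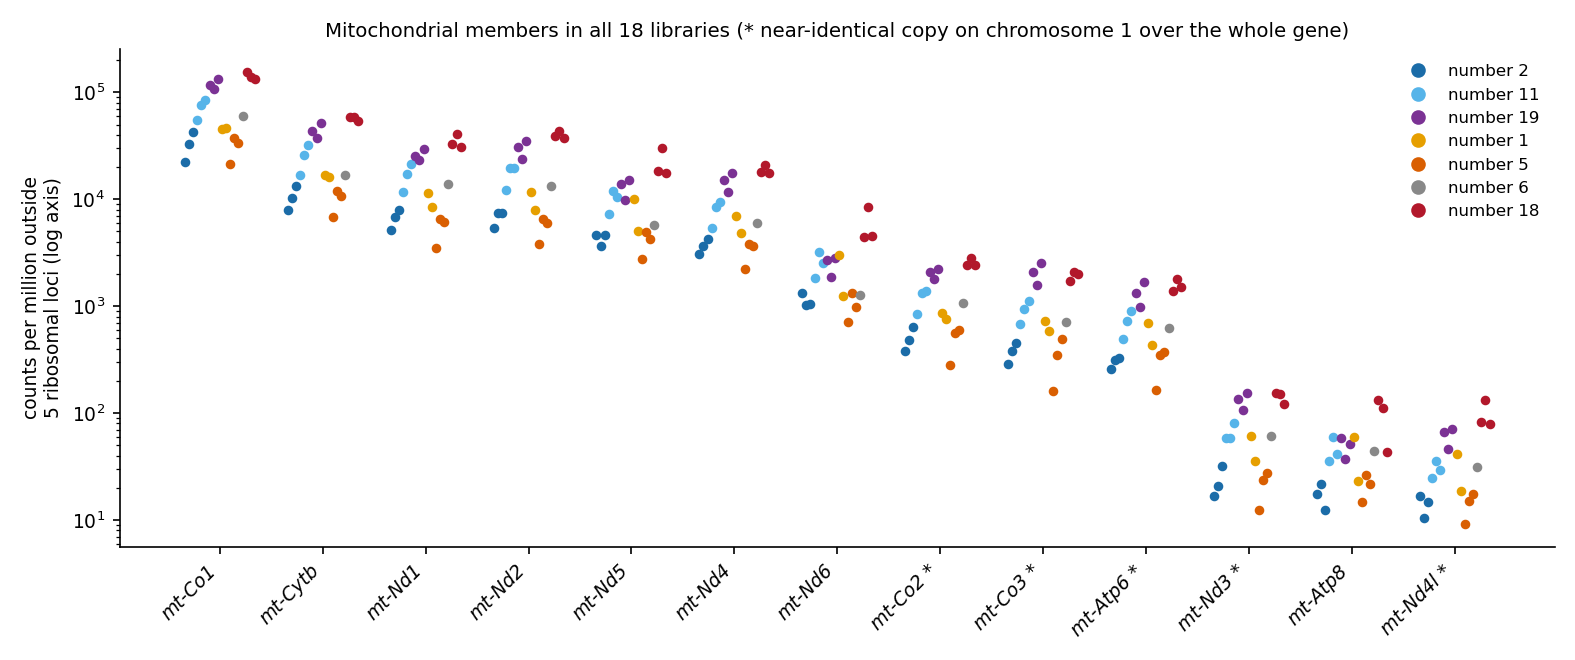
Level of each mitochondrial member (CPM, log axis) in the 18 libraries, 1 point per library, coloured by the number of the library; a star marks members whose whole length is repeated on chromosome 1. Levels run from mt-Co1 down to mt-Nd4l, and for most members the libraries of numbers 18 and 19 are on top.

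Nuclear members averaged up to 562 CPM per gene, with a median of 44.9 CPM over the 88, and 74 had a count in every library. Another 11 had fewer than 100 counts in all 18 libraries together, among them the tissue-specific forms Cox4i2, Cox6b2, Cox7a1, Cox7b2, Cox8b, Cox8c and Ndufa4l2 and 4 pseudogenes. Of the nuclear counts, Atp5b, the catalytic beta subunit of complex V, took 8.75% ± 1.16 and Atp5a1, its alpha subunit, 7.20% ± 1.12 (SD, n = 18). Uqcrh, the hinge protein of complex III, followed with 5.602% ± 1.27. Levels per length come from the deposited FPKM values, read in the 15 libraries that are not rich in ribosomal counts. There Uqcrh led with a median of 9.05% of the summed nuclear FPKM, followed by Atp5e with 4.78%, Ndufa4 with 4.401% and Atp5h with 4.39%. FPKM listed 3 nuclear members, Ndufs1, Ndufb2 and Atp5o, and 8 mitochondrial ones at 0 in libraries with at least 100 counts of them (mt-Co1 in 5 libraries with 883857 to 3742598 counts), so no FPKM share is given for the mitochondrial members.

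Among the subunits that exist in several forms, 1 form held nearly all of the FPKM in some sets and not in others. Cox8a and Ndufa4 held 100% of their sets in every library, and Cox6b1 at least 99.2%. In the rotor ring of complex V, whose subunit c has 3 genes, Atp5g3 held 48.3% to 82.9%, Atp5g2 13.9% to 41.6% and Atp5g1 2.77% to 11.8%. The treated CD3-CD8- libraries stood apart from the untreated ones here: Atp5g3 held 67.9% to 77.1% treated against 49.7% to 56.6% untreated, and Atp5g1 3.45% to 5.70% treated against 10.48% to 11.8% untreated. Cox7a2l, known for its role in joining complexes III and IV, held 54.3% to 80.8% of its set, with 54.3% to 65.1% in treated and 67.3% to 70.8% in untreated CD3-CD8- cells, and Cox7a2 nearly all of the rest. Cox6a2 took 0% to 17.96% of the Cox6a pair.

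In CD3-CD8- cells, PolyIC with anti PD-L1 was followed by changes in 23 nuclear members and in no mitochondrial one that passed the test. Ndufs7, Ndufb7, Ndufa11, Uqcr11 and Uqcr10 had the largest falls, and Uqcrb, Uqcrh, Ndufs4, Atp5j and Atp5f1 rose. Of 77 nuclear members tested by edgeR (quasi-likelihood test, adjusted p below 0.05 over all genes tested), 5 were higher and 18 lower. Over all 13781 genes tested the shares were 10.2% higher and 15.3% lower, so the members' 18 of 77 lower stand beside 15.3% and their 5 of 77 higher beside 10.2%. The median log2 fold change of the nuclear members was 0.02, against -0.06 over all genes. The nuclear members thus moved in both directions with no shift as a whole.

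Complex I held 10 of the 18 members that fell, and also the most nuclear members tested of any complex. Of its 36 nuclear members tested, 10 fell and 1 rose, where 15.3% of all genes tested were lower and 10.2% higher. Ndufs7, the core subunit that holds the last iron-sulfur cluster before quinone (chromosome 10, 80249121 to 80256794), had 2.53, 2.18 and 2.86 CPM in treated and 35.1, 31.5 and 7.83 CPM in untreated CD3-CD8- cells (log2 fold change -3.06, SE 0.48, adjusted p = 0.00974). All treated values lay below all untreated ones, and untreated 18 was the lowest of its group. Ndufb7, an accessory subunit of the membrane arm, had 8.76, 5.09 and 3.86 CPM in treated and 60.99, 53.4 and 14.9 CPM in untreated cells (log2 fold change -2.70, SE 0.47, adjusted p = 0.0108). Ndufa11, another membrane arm subunit, had 7.66, 3.63 and 3.15 CPM in treated and 35.8, 38.1 and 15.0 CPM in untreated cells (log2 fold change -2.46, SE 0.38, adjusted p = 0.00935). Neither overlapped between groups, and untreated 18 was again the lowest of its group. Among the other complex I falls the log2 fold changes were -1.500 for Ndufs6, -1.24 for the iron-sulfur core subunit Ndufs8, -1.19 for Ndufa2, -1.11 for Ndufa8, -1.11 for Ndufa7 and -0.99 for the NADH-binding subunit Ndufv1. Ndufs4, an accessory subunit whose loss in mice gives a lethal complex I deficiency, was the 1 that rose, with 105, 119.7 and 77.8 CPM in treated and 82.2, 72.2 and 53.0 CPM in untreated cells (log2 fold change 0.67, SE 0.18, adjusted p = 0.0328), and its groups overlapped.

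Of 8 nuclear complex III members tested, 2 rose and 3 fell, where 10.2% of all genes tested were higher and 15.3% lower. Uqcr11, a small subunit of the complex, had 2.36, 2.91 and 1.502 CPM in treated and 17.6, 14.2 and 6.71 CPM in untreated CD3-CD8- cells (log2 fold change -2.43, SE 0.37, adjusted p = 0.00919), and Uqcr10, another small subunit, had 6.34, 5.81 and 3.97 CPM in treated and 37.2, 31.1 and 11.1 CPM in untreated cells (log2 fold change -2.16, SE 0.37, adjusted p = 0.0108). The core protein Uqcrc1 fell by 0.63 on the log2 scale (SE 0.16). Uqcrh, by contrast, had 505, 611 and 464 CPM in treated and 407, 344 and 276 CPM in untreated cells (log2 fold change 0.75, SE 0.19, adjusted p = 0.0259), without overlap. Uqcrb, the subunit by the quinone site, had 139, 163 and 93.7 CPM in treated and 101, 72.0 and 61.3 CPM in untreated cells (log2 fold change 0.87, SE 0.23, adjusted p = 0.0318), and treated 19 lay below untreated 1. The core protein Uqcrc2 gave 0.40 (SE 0.13) and the small subunit Uqcrq -0.57 (SE 0.40), and neither passed.

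In complex V, 2 of 18 nuclear members tested rose and 4 fell, where 10.2% of all genes tested were higher and 15.3% lower. Atp5j and Atp5f1, parts of the peripheral stalk, rose: Atp5j had 153, 167 and 120.2 CPM in treated and 118, 102 and 83.0 CPM in untreated CD3-CD8- cells (log2 fold change 0.66, SE 0.16, adjusted p = 0.0244), and Atp5f1 had 268, 290.2 and 243 CPM in treated and 234, 197 and 173 CPM in untreated cells (log2 fold change 0.53, SE 0.16, adjusted p = 0.0467). Both were free of overlap. Atp5d, the delta subunit of the central stalk, fell by 1.78 on the log2 scale, and the rotor ring genes Atp5g1 and Atp5g2 by 1.33 and 1.0. Atp5sl fell by 0.67. The catalytic subunit Atp5b, at 617, 519 and 523 CPM in treated and 615, 699.8 and 562 CPM in untreated cells, gave -0.06 (SE 0.15) and did not pass, nor did Atp5l, subunit g, at 0.16 (SE 0.19).

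Complexes II and IV held 1 call between them, where 10.2% of all genes tested were higher and 15.3% lower. None of the 4 complex II members passed, with the flavoprotein Sdha at 0.02 (SE 0.15) and the iron-sulfur protein Sdhb at -0.30 (SE 0.16). In complex IV, 1 of 11 tested fell, Cox6a1, at 32.9, 26.9 and 32.3 CPM in treated and 63.4, 77.2 and 36.9 CPM in untreated CD3-CD8- cells (log2 fold change -0.78, SE 0.20, adjusted p = 0.0272). Cox5a gave 0.45 (SE 0.18), and the complex I subunits Ndufs1 and Ndufb8, also not called, gave 0.38 (SE 0.13) and 0.17 (SE 0.14). Cox4i1, beside the members, gave -0.55 (SE 0.17) with an adjusted p of 0.0542.

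**Figure D3:**
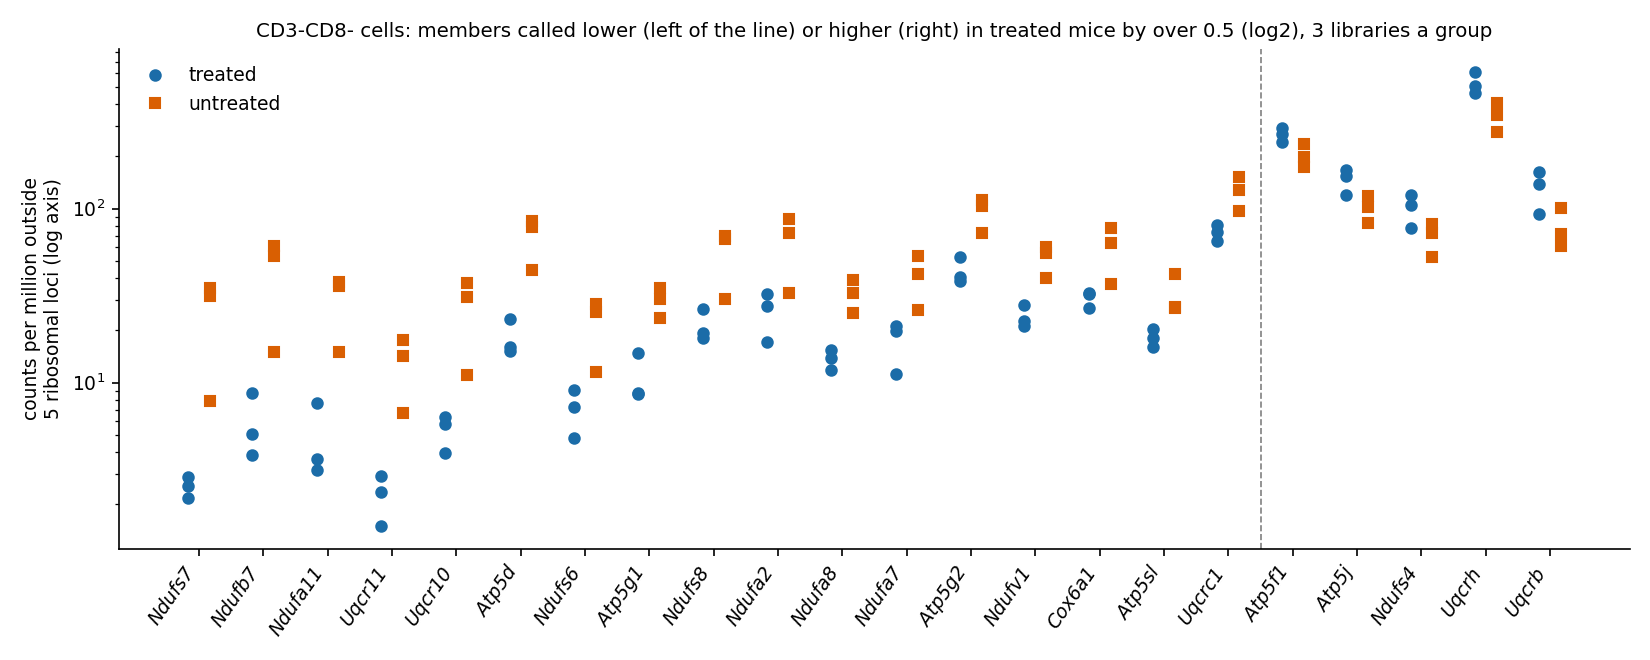
Level (CPM, log axis) of the 22 nuclear members called in CD3-CD8- cells with a log2 fold change over 0.5 in size, 1 point per library, treated and untreated libraries side by side for each gene, ordered by fold change. For the 17 members that fell, left of the dashed line, the 3 treated points sit below the 3 untreated points. These members were called on the same libraries, so the gap adds nothing to the calls. The share of all genes with such a gap is not given. For those with the largest falls 1 untreated point, number 18, lies well below the other untreated ones.

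The mitochondrial members of CD3-CD8- cells were higher in 12 of 13 by sign, with a median log2 fold change of 0.30, but their standard errors were 0.59 to 0.91. mt-Co1 gave 0.35 (SE 0.78), mt-Cytb 0.30 (SE 0.82), mt-Nd1 0.41 (SE 0.81), mt-Nd2 0.30 (SE 0.91), mt-Nd4 0.30 (SE 0.81) and mt-Nd5 0.21 (SE 0.74). mt-Nd6, from the other strand, gave -0.06 (SE 0.72) and was the 1 below 0. For the short or copied genes the values were 0.22 for mt-Co2, 0.48 for mt-Co3, 0.40 for mt-Atp6, 0.37 for mt-Atp8, 0.59 for mt-Nd3 and 0.07 for mt-Nd4l. The adjusted p-values of edgeR ran from 0.61 to 0.96, so none differed beyond the spread between libraries. The direction turned with single libraries: the median was -0.34 without treated 19, -0.06 without untreated 5, 0.05 without untreated 1, 0.76 without treated 2 and 1.53 without untreated 18. It was -0.44 after the correction for base composition described below.

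The transcripts of members that fell were richer in G and C than those of members that rose. The G and C content of the transcript had a median of 56.1% (46.8% to 63.4%) over the 18 that fell, 49.1% over the 5 that rose and 50.03% over the 54 not called. The same ran through all genes of this comparison, with medians of 56.3% for those lower, 42.8% for those higher and 48.9% for those not called. Weighted by counts, the mean transcript G and C content of the nuclear members was 47.6, 47.6 and 47.6% in treated and 49.1, 49.4 and 48.9% in untreated CD3-CD8- libraries, without overlap. In CD3+CD8+ cells, where no member was called, it was 47.6, 46.6 and 48.7% in treated and 47.3, 48.7 and 46.9% in untreated libraries. The first 150 coding bases of a gene that fell and a gene that rose are shown to make this visible (GENCODE vM21 on GRCm38, G and C in capitals, introns left out). Over the whole transcript Ndufs7 has 59.6%, and Uqcrb has 42.2%, the lowest of the 5 that rose. Ndufs7 (chr10:80249476-80253672, plus strand) has 66.0% G and C in this stretch and Uqcrb (chr13:66901510-66905311, minus strand) 42.7%:
Ndufs7: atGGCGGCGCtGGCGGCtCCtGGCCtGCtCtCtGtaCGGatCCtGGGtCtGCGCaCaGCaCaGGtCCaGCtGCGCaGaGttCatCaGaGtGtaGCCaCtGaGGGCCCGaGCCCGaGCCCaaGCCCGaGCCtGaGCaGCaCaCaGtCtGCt
Uqcrb: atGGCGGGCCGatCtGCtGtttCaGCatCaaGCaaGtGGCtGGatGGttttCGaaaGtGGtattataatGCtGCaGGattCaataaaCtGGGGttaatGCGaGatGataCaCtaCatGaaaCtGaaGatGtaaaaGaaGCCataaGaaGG

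A correction of each library for transcript G and C content took most of the calls away. After it 480 of 13781 genes and 7 members were called. Of these members Ndufa11, Atp5d, Atp5g1, Ndufs7 and Ndufa8 were lower and Atp5j and Cox8a higher. Cox8a was not called without the correction (0.13, SE 0.14). Of the 5 members that rose, 1 was still called and all kept their sign. Of the 18 that fell, 5 were still called and 15 kept their sign, while Atp5g2, Cox6a1 and Uqcrc1 turned to 0.36, 0.15 and 0.14. Fitted together with the other 12 libraries as 6 groups, none of the 23 passed (13 members at an unadjusted p below 0.05), though all 23 kept their sign. Whether the base composition or the treatment sets these differences cannot be told apart in this design.

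**Figure D4:**
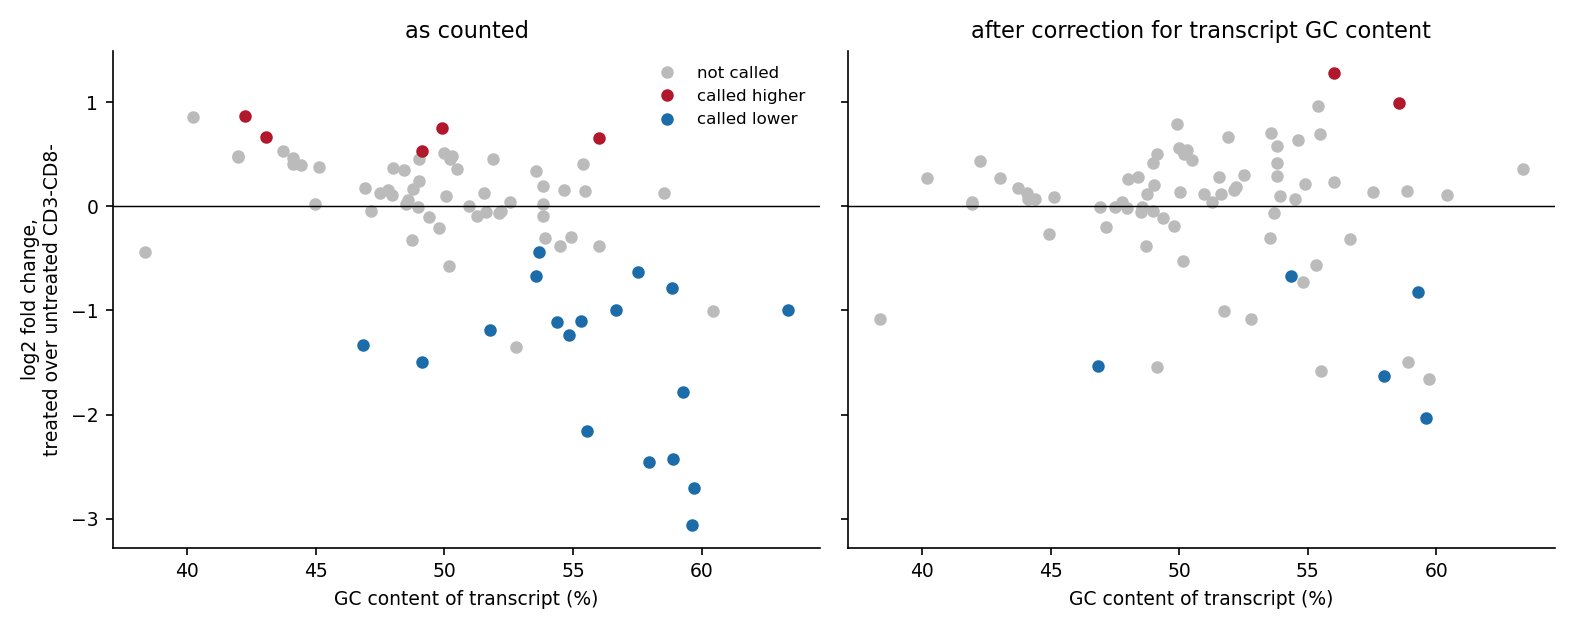
Log2 fold change (treated over untreated CD3-CD8- cells, edgeR) of the 77 nuclear members tested against the G and C content of their transcript (percent), without (left) and with (right) correction for that content; members that rose, fell or were not called are coloured apart. Members of high G and C content lie low on the left, where 23 are called, and 7 are called on the right.

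Single libraries decided many of these calls. Without untreated 5, 1 member was called, and without treated 2, 9, all lower. Without untreated 18 the count was 17, all lower, and without untreated 1, treated 11 and treated 19 it was 15, 17 and 12. The signs of all 23 held in each of these 6 fits. With the sequencing lane as a term, 4 members rose and 17 fell. Other cell types moved in the same libraries. The 7 T cell markers summed to 6667, 3741 and 4264 CPM in treated and 1902, 2020.4 and 618 CPM in untreated CD3-CD8- cells, and 6 of them rose by the test. The 5 B cell markers summed to 1544, 1278 and 1745 CPM treated and 2578, 3760.3 and 2909 CPM untreated, and 4 fell. The 8 neutrophil markers summed to 736, 23644 and 1599.7 CPM treated and 141, 223 and 856 CPM untreated, with 4 of 7 tested higher and 1 at 0 in all untreated libraries. The part of these cells in the members' changes was not tested.

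Promoters were searched for motifs of known regulators of respiratory genes. RefSeq promoters (GRCm38.p6, 250 bases before to 50 after the start) matched 66 of the 88 nuclear members. The NRF1 motif GCATGCGC, searched on both strands and named for a regulator of respiratory genes, was found in 15.2% of them and in 2.71% of all 32851 promoters. The GABPA motif CCGGAAG was found in 22.7% and 8.86%, and the YY1 motif AAGATGGC in 12.1% and 2.75%. No motif contains another, and that of NRF1 is itself rich in G and C. Of the 15 promoters of members that fell, 6 held the NRF1 motif, as did 0 of 3 of members that rose and 4 of 44 not called. A match is a description and not a site. Uqcr11, which fell, and Uqcrh, which rose, are shown (chr10:80406772-80407071 and chr4:116075021-116075320, both minus strand, motifs in capitals, with CTTCCGG the GABPA motif on the opposite strand):
Uqcr11: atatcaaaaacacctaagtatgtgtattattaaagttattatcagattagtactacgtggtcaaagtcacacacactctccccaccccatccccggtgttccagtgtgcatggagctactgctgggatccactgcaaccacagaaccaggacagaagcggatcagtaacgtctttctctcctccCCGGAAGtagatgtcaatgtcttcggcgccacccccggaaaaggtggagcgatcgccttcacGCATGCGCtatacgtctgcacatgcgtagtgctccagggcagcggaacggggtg
Uqcrh: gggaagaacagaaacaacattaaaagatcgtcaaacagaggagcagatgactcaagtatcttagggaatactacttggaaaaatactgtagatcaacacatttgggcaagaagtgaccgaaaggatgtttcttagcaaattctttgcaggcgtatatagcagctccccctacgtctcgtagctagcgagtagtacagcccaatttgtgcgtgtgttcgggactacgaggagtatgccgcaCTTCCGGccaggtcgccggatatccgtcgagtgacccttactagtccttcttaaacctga

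The other genes of mitochondrial energy metabolism also moved in both directions in CD3-CD8- cells, read by edgeR and called at the same threshold. Their counts stand beside 10.2% higher and 15.3% lower over all 13781 genes tested. Of 26 genes that copy and maintain mitochondrial DNA and RNA, 7 rose and 2 fell (median 0.39). Polrmt, the mitochondrial RNA polymerase, gave -2.18 (SE 0.32, adjusted p = 0.00909), against 1.01 (SE 0.17, adjusted p = 0.0104) for the transcription factor Mterf2 and 0.63 (SE 0.15, adjusted p = 0.0214) for Trmt10c, a subunit of mitochondrial RNase P. Among 12 regulators of mitochondrial biogenesis 4 fell and none rose (median -0.56): Esrra, the receptor ERR alpha, gave -2.67 (SE 0.34, adjusted p = 0.00849), Myc -1.27 (SE 0.28, adjusted p = 0.0186) and Pprc1, a coactivator of the PGC-1 family, -0.79 (SE 0.18, adjusted p = 0.0208). Myc is also an injected oncogene, and whether its reads are host transcripts was not tested. Of 43 assembly factors 4 rose and 4 fell (median 0.27), among them the complex III factor Uqcc3 at -1.33 (SE 0.23, adjusted p = 0.0107), the complex II factor Sdhaf4 at 0.73 (SE 0.16, adjusted p = 0.0194) and the complex IV factor Pet100 at 0.96 (SE 0.22, adjusted p = 0.0217).

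Of 18 enzymes of the citric acid cycle 2 rose and 4 fell (median -0.15): pyruvate carboxylase Pcx gave -2.15 (SE 0.42, adjusted p = 0.0137), Idh3a 0.77 (SE 0.16, adjusted p = 0.0152) and malate dehydrogenase Mdh2 -0.62 (SE 0.13, adjusted p = 0.0162). Fatty acid oxidation had 3 of 15 up and 3 down (median -0.27), with Acads at -1.20 (SE 0.23, adjusted p = 0.0127), Etfb at -1.46 (SE 0.30, adjusted p = 0.0150) and Acadl at 0.53 (SE 0.12, adjusted p = 0.0214). The pair Etfa and Etfb, which form 1 electron carrier, went apart, with Etfa at 0.54 (SE 0.14, adjusted p = 0.0331). Electron carriers and ATP export had 1 of 20 up, Coq10b at 0.58 (SE 0.18, adjusted p = 0.0474), and 1 down, the proton leak carrier Ucp2 at -0.70 (SE 0.15, adjusted p = 0.0161). Mitochondrial ribosomal proteins had 4 of 78 up and 12 down (median -0.07), and rows with cytosolic ribosomal protein symbols 11 of 201 up and 44 down (median -0.17). The 201 rows were matched by symbol and may hold pseudogenes. Beside the counts of these lists, too, stand 10.2% of all genes tested higher and 15.3% lower. After the correction for base composition 1 assembly factor was higher and 1 lower, 1 biogenesis regulator was lower, 1 carrier was higher, and 0 genes of mitochondrial DNA expression, of the citric acid cycle and of fatty acid oxidation were called (edgeR, the same threshold). Of the mitochondrial ribosomal proteins 1 was then higher, and of the cytosolic rows 1 was higher and 10 lower. Over all 13781 genes tested, 235 were then higher and 245 lower.

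In CD3+CD8+ cells no member differed by treatment beyond the spread between libraries. Of 87 members tested, edgeR called 0, as did DESeq2 and voom, with 1 at an unadjusted p below 0.05, and 0% of all 10654 genes tested were called in either direction (624 at an unadjusted p below 0.05; 98 called by DESeq2 and 194 by voom). The nuclear median was -0.09 beside -0.03 over all genes. Ndufs7 had 3.54, 1.72 and 12.1 CPM in treated and 1.65, 15.3 and 2.06 CPM in untreated CD3+CD8+ cells, and Uqcr11 had 1.77, 1.08 and 4.62 CPM in treated and 8.24, 10.8 and 0 CPM in untreated cells. The value of 0 stands on 0 counts and allows up to 6.17 CPM at that depth, counting error only. Both groups overlapped for Ndufs7, since untreated 5 lay above and untreated 1 below the treated values. Atp5b had 808, 526 and 585 CPM in treated and 402, 802 and 349 CPM in untreated cells, 0.15 (SE 0.35) on the log2 scale, and Sdha gave 0.19 (SE 0.28), Uqcrc2 0.13 (SE 0.29), Cox5a 0.27 (SE 0.31), Ndufs1 0.14 (SE 0.30), Ndufb8 -0.15 (SE 0.30), Sdhb -0.20 (SE 0.36) and Atp5l -0.05 (SE 0.32). Uqcrq, another subunit of complex III, gave -1.003 (SE 0.50, adjusted p = 0.948 by edgeR). It did not overlap between groups, at 7.58, 9.25 and 4.19 CPM treated and 13.2, 13.8 and 10.3 CPM untreated. The untreated values rest on few counts in numbers 1 and 18, where 3 counts equal 4.94 and 6.17 CPM. Cox4i1 gave -0.36 (SE 0.46).

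All 13 mitochondrial members were below 0 in this fraction (median -0.62), from -1.34 for mt-Nd6 to -0.32 for mt-Co1, with standard errors of 0.61 to 1.28. mt-Co1 had 33101, 75444 and 106768 CPM in treated and 45254, 37223 and 139362 CPM in untreated CD3+CD8+ cells. Only untreated 18 lay above the treated range, and the groups overlapped. Untreated 1 and 18 are the libraries in which ribosomal loci held most counts. Without them 1 untreated library was left, and the mitochondrial median was 1.12 with all 13 above 0, while the nuclear median was -0.47. Without untreated 18 alone the mitochondrial median was 0.63 with 11 of 13 above 0, and without untreated 1 alone it was -0.92 with 0 above 0.

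CD3+CD8- cells gave no call either. Of 89 members tested edgeR, DESeq2 and voom called 0, none had an unadjusted p below 0.05 in edgeR, and 0% of 11197 genes were called in either direction (198 at an unadjusted p below 0.05; 2 called by DESeq2 and 0 by voom). The nuclear median was -0.18 beside -0.02 over all genes, and it became 0.30 without treated 2, rich in ribosomal counts, and untreated 6, whose Cd8a goes against its label. Ndufs7 had 4.83, 1.68 and 4.89 CPM in treated and 13.05, 26.4 and 1.70 CPM in untreated CD3+CD8- cells, and Atp5b 398, 529 and 593 CPM in treated and 579.6, 624 and 385 CPM in untreated cells. Untreated 6 was the highest of its group for Ndufs7, and both genes overlapped between groups. The other members fixed for each comparison lay between -0.70 (Uqcrq) and 0.27 (Sdha), with Sdhb at -0.47, Ndufb8 at -0.15, Cox5a at -0.04, Atp5l at -0.03, Uqcrc2 at 0.05 and Ndufs1 at 0.10. Cox4i1 gave -0.55. Mitochondrial members were below 0 in 12 of 13 (median -0.36), with mt-Co1 at -0.47 (SE 1.46) and mt-Co3, the 1 above 0, at 0.05 (SE 0.97). The 8 neutrophil markers summed to 19249, 43136 and 13707 CPM in treated and 4879, 6701 and 14079 CPM in untreated CD3+CD8- cells, at or above most CD3-CD8- libraries, and their part in the members' levels was not tested. As 0% of all genes were called in either CD3+ fraction, the lists of other mitochondrial genes could hold no called gene there.

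The treatment effect was then compared between fractions in 1 fit of all 18 libraries. No member and 0% of 13181 genes passed for CD3+CD8+ minus CD3-CD8- cells, for CD3+CD8- minus CD3-CD8- cells or for CD3+CD8+ minus CD3+CD8- cells. Unadjusted p-values below 0.05 were found for 515, 503 and 478 genes and for 1, 0 and 0 members. DESeq2 called 1, 28 and 116 genes and 0 members, and voom called 235, 0 and 0 genes and 0 members. The changes in CD3-CD8- cells are thus not shown to differ from those in the CD3+ fractions.

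Between the sorted fractions, with both treatments weighted alike, 2 members passed the test in the fit with no term for the library number. Cox6a2, the heart and skeletal muscle form of a complex IV subunit, was higher in both CD3+ fractions than in CD3-CD8- cells, and Atp5k, subunit e of complex V, was lower in CD3+CD8+ cells. The fractions are named by their sort: the T cell markers summed to 2732 to 4764 CPM in treated CD3+CD8- and 3741 to 6667 CPM in treated CD3-CD8- cells. Cox6a2 (chromosome 7, 128205435 to 128206387) had 2.53, 2.37 and 2.34 CPM in treated and 8.24, 8.12 and 2.06 CPM in untreated CD3+CD8+ cells. It had 3.02, 1.01 and 2.55 CPM in treated and 5.49, 5.51 and 3.96 CPM in untreated CD3+CD8- cells, and 0.979, 0.969 and 0.465 CPM in treated and 3.43, 2.197 and 0.813 CPM in untreated CD3-CD8- cells. The fractions overlapped, and these levels rest on 1 to 58 counts per library.

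For CD3+CD8+ over CD3-CD8- cells, Cox6a2 gave log2 fold change 1.63, SE 0.38, adjusted p = 0.00875 and Atp5k gave log2 fold change -0.99, SE 0.29, adjusted p = 0.0335, by edgeR. These were 1 higher and 1 lower of 90 members, where 4.85% and 7.99% of 13181 genes were called. For CD3+CD8- over CD3-CD8- cells Cox6a2 gave log2 fold change 1.30, SE 0.37, adjusted p = 0.0410, the 1 member called, where 5.27% of genes were higher and 2.85% lower. For CD3+CD8+ over CD3+CD8- cells 0 members were called by edgeR and by DESeq2 and 1 by voom, with 1 at an unadjusted p below 0.05, where 0.728% of genes were higher and 6.96% lower. Atp5k (chromosome 5, 108433244 to 108434448) had 16.2, 18.3 and 34.8 CPM in treated and 23.1, 55.04 and 20.6 CPM in untreated CD3+CD8+ cells, against 55.01, 62.5 and 29.9 CPM in treated and 76.4, 68.2 and 51.0 CPM in untreated CD3-CD8- cells. Untreated CD3+CD8+ 5 and treated CD3-CD8- 19 are the libraries in which the 2 fractions overlapped. In the untreated or the treated libraries alone 0 members passed. The call of Cox6a2 in CD3+CD8+ cells was kept in each of the 18 fits that left out 1 library. Its call in CD3+CD8- cells was lost in 13 of them and also without the libraries rich in ribosomal counts (1.22), and that of Atp5k was lost in 6 of them and without those libraries (-0.75).

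Cox6a2 is also known as a gene of mouse plasmacytoid dendritic cells, whose markers were higher in the same fractions. The 3 markers of that cell type summed to 261, 328 and 276 CPM in treated and 616, 521 and 393 CPM in untreated CD3+CD8+ cells. The sums were 179, 255 and 323 CPM in treated and 576, 161 and 642 CPM in untreated CD3+CD8- cells. CD3-CD8- cells had 53.2, 154 and 87.1 CPM treated and 154, 119 and 112 CPM untreated, none of the 3 being at 0 in all libraries of a group, and 2 of the 3 were higher in each CD3+ fraction by the test. The part of these cells in the level of Cox6a2 was not tested. The treated over untreated difference of Cox6a2 did not pass in any fraction: -1.56 (SE 0.55) in CD3+CD8+ cells (adjusted p = 0.684) and -1.17 (SE 0.53) in CD3+CD8- cells (adjusted p = 1.0 by edgeR), and also in CD3-CD8- cells at -1.35 (SE 0.54), adjusted p = 0.101.

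**Figure D5:**
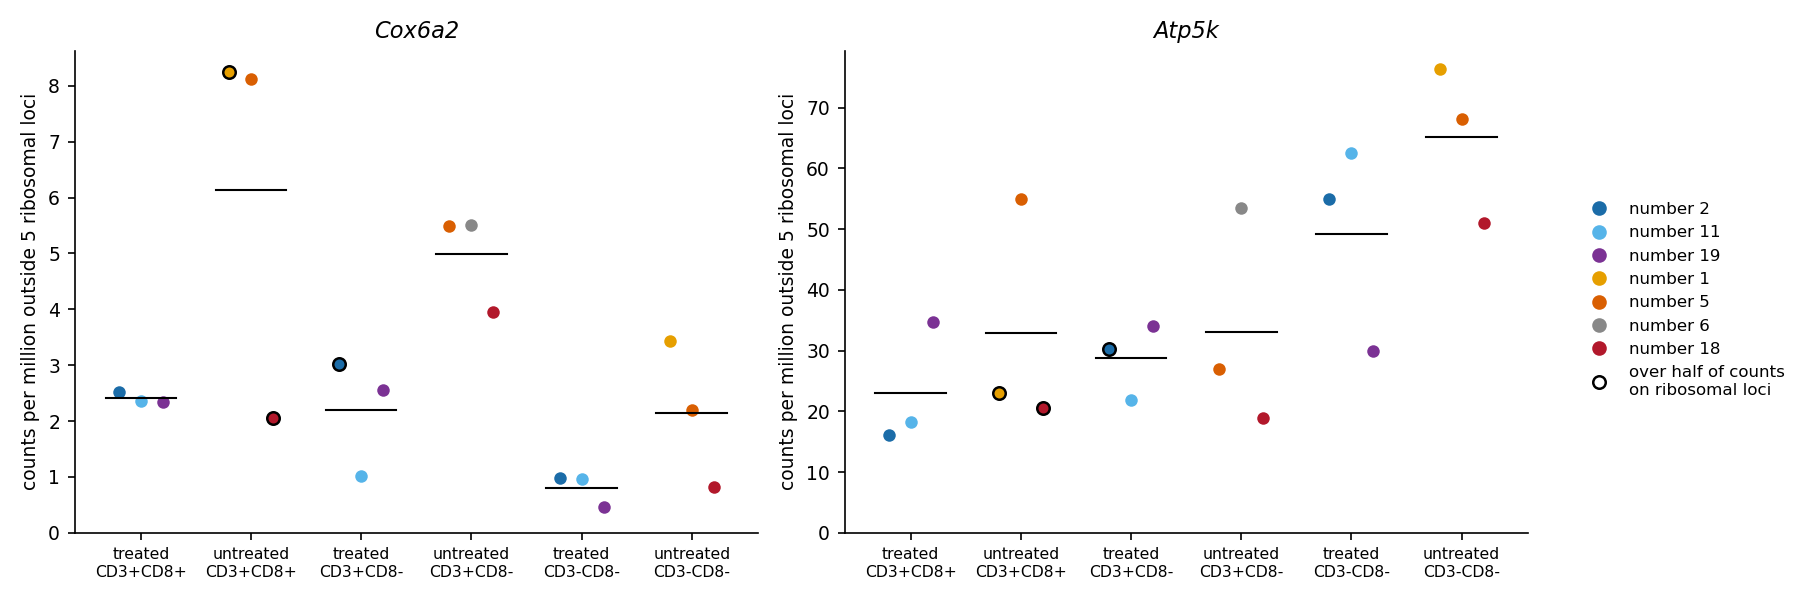
Level (CPM) of Cox6a2 (left) and Atp5k (right) in the 18 libraries, 1 point per library, by sorted fraction and treatment, coloured by number, with group means as bars and libraries rich in ribosomal counts ringed. Cox6a2 stays at or under 3.43 CPM in CD3-CD8- cells and reaches 8.24 CPM in CD3+CD8+ cells, while Atp5k reaches 76.4 CPM in CD3-CD8- and 55.04 CPM in CD3+CD8+ cells.

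Most nuclear members had lower estimates in the CD3+ fractions than in CD3-CD8- cells. Few passed the test in the fit with no term for the library number. More passed with that number as a block, as given in the closing section, where the pairing is a hint only. After the correction for base composition 1 member was higher and 8 were lower in CD3+CD8- than in CD3-CD8- cells, where 1012 genes were higher and 534 lower of 13181. The nuclear median was -0.26 for CD3+CD8+ over CD3-CD8- cells, with 14 of 77 above 0, where the median of all genes was 0.01. For CD3+CD8- over CD3-CD8- cells it was -0.42, with 5 of 77 above 0, where all genes had 0.00. For CD3+CD8+ over CD3+CD8- cells it was 0.16, with 59 of 77 above 0 and 0.04 over all genes. The comparisons share libraries and are not independent. Mitochondrial medians were -0.03, -0.13 and 0.12 in that order. Rows with cytosolic ribosomal protein symbols lay low as well, at -0.15 for CD3+CD8+ and -0.51 for CD3+CD8- over CD3-CD8- cells. The neutrophil markers were higher in CD3+CD8- than in CD3-CD8- cells in 4 of 7 tested, with sums of 4879 to 43136 CPM in CD3+CD8- cells against 141 to 23644 CPM in CD3-CD8- cells, and their part in these medians was not tested. Once the ribosome-rich libraries were left out, untreated CD3+CD8+ cells kept number 5 alone, with a mitochondrial share of 7.36%. Number 18 stayed in untreated CD3+CD8- and CD3-CD8- cells, with 33.3% and 30.0%. The mitochondrial median was then -0.98 for CD3+CD8+ over CD3-CD8- cells and -0.89 for CD3+CD8+ over CD3+CD8- cells, with none of 13 above 0. With the library number as a block, these members gave 0.27 (mt-Atp8) to 0.58 (mt-Nd6) for CD3+CD8+ over CD3+CD8- cells. For CD3+CD8+ over CD3-CD8- cells they gave -0.22 (mt-Co3) to 0.61 (mt-Atp8). The part of the numbers in these medians was not tested.

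The comparison of CD3+CD8- with CD3-CD8- cells turned on the library labelled untreated CD3+CD8- 6. Without it 17 members were called, all of them lower in CD3+CD8- cells, where 906 genes were higher and 657 lower of 14068, and Cox6a2 was no longer among them. They were led by Ndufb11, a membrane arm subunit of complex I, at -0.97 (SE 0.20, adjusted p = 0.00640 by edgeR), Atp5k at -1.25 (SE 0.27) and Ndufs5 at -0.92 (SE 0.21), which were named after their values were seen. That library had the highest summed erythroid markers of the 18, 13699 CPM. Without it and the 3 libraries rich in ribosomal counts 20 members were called, all lower, where 779 genes were higher and 771 lower of 15774.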

How the data were processed

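RNA of sorted liver immune cells was purified with the RNeasy Plus Micro kit and made into TruSeq v2 libraries, per the labels' protocols. Per the submitters' processing notes the tools included Cufflinks 2.2.1, HTSeq 0.13.5, DESeq2 and Trim Galore 0.6.7. Aligner, genome build, counting strand and the handling of reads with several matches: not given in the sources used here. The authors deposited a table of raw counts per gene and a table of FPKM (fragments scaled by transcript length and library size), which also gives symbols and positions. The positions are printed from 1; those of 77 of 101 members are identical in GENCODE vM21 on GRCm38. The tables hold 22 further library columns, which were not used. Symbols came from the FPKM table for 48242 rows and from the reference for 194.

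Levels are CPM outside 5 ribosomal loci. Groups were compared with edgeR 4.0.16 in R 4.3.3 (filterByExpr, TMM, quasi-likelihood test, Benjamini-Hochberg over all genes tested, adjusted p below 0.05), treated against untreated within a fraction (6 libraries) and between fractions (18 libraries); an SE is the log2 fold change over the root of F. The fits of some comparisons were run on simulated counts with large changes and the same dispersion for every gene. Those counts held no effect of base composition or library number, so the runs say nothing on such effects. Alternatives used DESeq2 1.42.0, limma 3.58.1 (voom with quality weights; log2(FPKM + 1) for a mean FPKM of at least 1), other scalings and filters, the lane, libraries left out and a correction for transcript G and C content by loess in each library. Nothing states that the libraries of a group come from separate animals, so p-values measure only the spread between these libraries, which may be technical. Members and lists were chosen with earlier results of these data known. Named were the mitochondrial members, 10 subunits across the complexes, all called members where 10 or fewer and otherwise the 5 largest changes each way without overlap, and up to 3 called genes of each other list; further members called in CD3-CD8- cells, Etfa, Ndufs7 and Uqcr11 in the CD3+ fractions and the subunits led by number were named after their values were seen. Floors and intervals cover counting error only. 1 called member is not reported by name here.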

Additional observations from a re-analysis of the deposited data

How the results depend on the processing

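Of 112 counts of called members recomputed under other settings, 82 stayed within 1.5 times, 9 were lower and 21 higher. For treated over untreated CD3-CD8- cells (23 called), DESeq2 called 39, voom 44, the correction for base composition 7, limma on log2(FPKM + 1) 2 and the fit of all 18 libraries 0. Atp5g2, Cox6a1 and Uqcrc1 turned to 0.36, 0.15 and 0.14 under that correction, and Uqcrc1 to 0.67 on FPKM. For the treatment in CD3+CD8+ cells FPKM gave 1 member, and in CD3+CD8- cells it gave 4 and no filter 1; FPKM moved the median of all genes by 1.46 and -0.55 there. For CD3+CD8+ over CD3-CD8- cells (2 called) library totals gave 1, no filter 6, voom 20, and untreated or treated libraries alone 0. For CD3+CD8- over CD3-CD8- cells (1 called) DESeq2's size factors gave 3, library totals 0, no filter 6, the stricter filter 2, DESeq2 7, voom 28, the correction for base composition 9, leaving out ribosome-rich libraries and number 6 20 (chosen after seeing the data), and either treatment alone 0. For CD3+CD8+ over CD3+CD8- cells (0 called) voom gave 1, leaving out ribosome-rich libraries 1 and number 6 as well 4. The causes were not tested. Leaving out 1 library gave 1 to 17 members in treated CD3-CD8- cells, 1 to 10 for CD3+CD8+ and 0 to 17 for CD3+CD8- over CD3-CD8- cells, and 0 elsewhere.

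With the library number as a replicate block, 4 members (1 higher, 3 lower) were called for CD3+CD8+ and 24 (1 higher, Cox6a2, and 23 lower) for CD3+CD8- over CD3-CD8- cells, where 2296 and 2233 of 13181 genes were called. With the correction for base composition too, 5 (1 higher, 4 lower) and 24 (1 higher, 23 lower) were called, where 2259 and 2449 genes were. Deviations of same-numbered libraries correlated at a median of 0.348 (-0.0414 to 0.556, 14 of 16 pairs above 0.1), against -0.132 in 38 pairs of different numbers, and since no label ties a number to an animal and not every pair was above 0.1, the pairing is a hint from the data, not the design. Treated and untreated libraries share none, so their comparison has no block. Number 6 occurs in 1 library only, so the block fits that library fully. The block calls, like the fits without number 6, thus draw nothing from it.

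Mean nuclear shares moved to 0.787% and 0.881% in treated CD3+CD8+ and CD3-CD8- cells outside all other mitochondrial genes, to 0.432% and 0.341% of all counts in treated CD3+CD8- and untreated CD3+CD8+ cells, and on FPKM to 0.960% and 1.11% in treated CD3+CD8+ and CD3-CD8- and 0.805% and 1.01% in untreated CD3+CD8- and CD3-CD8- cells. Without 1 library the nuclear means were 0.636% to 0.706%, 0.510% to 0.618% and 0.685% to 0.760% in treated CD3+CD8+, CD3+CD8- and CD3-CD8- cells, and 0.457% to 0.694%, 0.501% to 0.670% and 0.692% to 0.819% in untreated ones. The mitochondrial means were 11.6% to 19.2%, 8.18% to 18.4% and 13.4% to 23.8% treated, and 9.08% to 22.9%, 8.05% to 22.6% and 7.96% to 19.6% untreated. Mitochondrial FPKM, listed at 0 beside high counts, was left out. Depth limits low members most: 3 counts equal 0.11 to 6.17 CPM.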
